A study of Komagataella pastoris with 6 samples.

Results

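The *P. pastoris* homologs of 2 *S. cerevisiae* genes, ESBP6 and SUR1, were examined in cultures with and without engineered flocculation. The study lists 4 *P. pastoris* genes under these names, namely the ESBP6 homologs PAS_chr1-4_0132, PAS_chr2-1_0309 and PAS_chr3_0278 and the SUR1 homolog PAS_chr1-3_0218. The 4 genes were found by identifier among the 5040 genes of the deposited counts, and all 4 were among the 5029 genes tested. The study picked these genes, together with 18 others, after differential expression had been computed on the same libraries, so that a difference between the strains was a condition of their choice. The homology is the study's own. Their sequences were not analysed here, so it was not checked against sequence.

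In *S. cerevisiae*, ESBP6 (also called MCH3) encodes a membrane protein of the major facilitator superfamily that resembles the monocarboxylate permeases of mammals, which carry lactate and pyruvate across membranes with a proton. Transport of monocarboxylates by the yeast proteins of this family has not been established, although extra copies of ESBP6 are known to raise the lactic acid tolerance of *S. cerevisiae*. SUR1 (also called CSG1) encodes a catalytic subunit of a Golgi enzyme that adds mannose to inositol phosphorylceramide (IPC), which yields mannosylinositol phosphorylceramide (MIPC), a sphingolipid that is carried to the plasma membrane. The study groups the 4 genes under cell wall rigidity, and lists PAS_chr2-1_0309 under transporters as well.

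Messenger RNA was sequenced from 3 replicate cultures of each of the strains KM71-ScFlo1-LpDLDH and KM71-LpDLDH. Both strains derive from KM71, a laboratory strain of *P. pastoris* that uses methanol slowly because its main alcohol oxidase gene is disrupted, and both carry the d-lactate dehydrogenase gene LpDLDH of *Leuconostoc pseudomesenteroides*. KM71-ScFlo1-LpDLDH also carries the flocculin gene ScFLO1 of *S. cerevisiae*, which makes the cells clump, on a plasmid with a HIS4 marker. Both genes are driven by the constitutive glyceraldehyde-3-phosphate dehydrogenase promoter. All cultures grew at 30 °C in glycerol minimal medium with histidine and were collected after about 21 h, in mid-exponential phase. The number of transformants behind each strain is not given in the sources used here, so that ScFLO1, its plasmid and marker and any other difference between the isolates cannot be told apart. Reads of ScFLO1 and LpDLDH were not analysed here, and the strain labels were not checked through them.

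The 6 libraries held between 10386352 and 12767753 reads on genes. Abundance is given as CPM, the count scaled to the size of the library, after TMM scaling (a trimmed mean of log ratios between libraries), with the standard deviation (SD) over 3 cultures, and a change as the log2 fold change of KM71-ScFlo1-LpDLDH over KM71-LpDLDH, with its standard error from the replicates. A gene was called at an adjusted p under 0.05 (edgeR's quasi-likelihood test, Benjamini-Hochberg over all tested genes) and a fold change above 2. These rules called 825 genes, or 16.4% of the genes tested, with 7.99% lower and 8.41% higher in KM71-ScFlo1-LpDLDH. The median log2 fold change of all tested genes was 0.02. Replicate cultures differed by more than counting noise in every pair, and replicates 1 and 3 of KM71-ScFlo1-LpDLDH were the least alike.

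All 3 ESBP6 homologs fell in KM71-ScFlo1-LpDLDH, by between 4.01-fold and 11.1-fold, and the SUR1 homolog rose by 4.11-fold. Thus 4 of 4 genes were called, 3 lower and 1 higher. Each of the 4 also exceeded a fold change of 4, which 3.30% of the tested genes did, and each passed edgeR's test against a fold change of 2 (glmTreat, adjusted p under 0.05), which 9.64% of the tested genes did. Since the genes had been picked for differential expression, these shares are only a description of where they stand. The strains did not overlap for any of the 4 genes, nor for 68.9% of all tested genes.

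**Figure D1:**
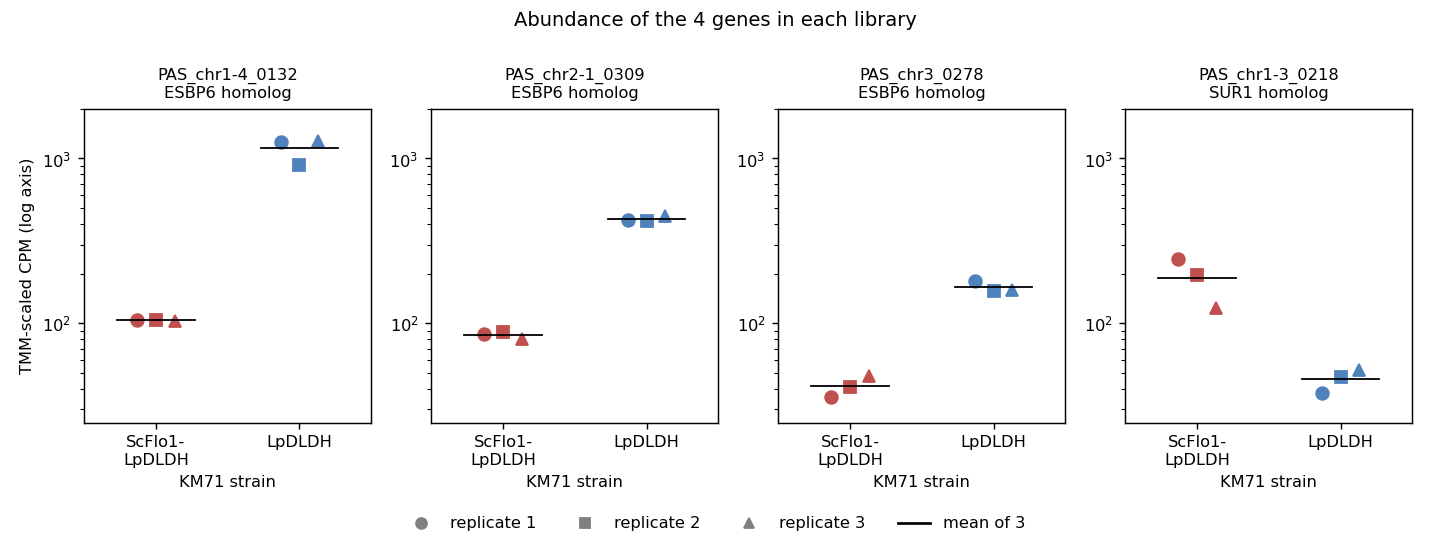
TMM-scaled CPM (log axis) of the 3 ESBP6 homologs and the SUR1 homolog in the 3 KM71-ScFlo1-LpDLDH and 3 KM71-LpDLDH libraries, with 1 marker per library and a line at the mean. The ESBP6 homologs lie between 35.7 and 105 CPM in KM71-ScFlo1-LpDLDH and between 157 and 1280 CPM in KM71-LpDLDH, while the SUR1 homolog lies between 124 and 245 CPM in KM71-ScFlo1-LpDLDH and between 37.9 and 52.0 CPM in KM71-LpDLDH.

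PAS_chr1-4_0132 had 104.2, 105 and 103.5 CPM in replicates 1, 2 and 3 of KM71-ScFlo1-LpDLDH, against 1263, 913 and 1280 CPM in replicates 1, 2 and 3 of KM71-LpDLDH. Every culture with ScFLO1 was thus far below every culture without it, and the closest pair of libraries from the 2 strains was still 8.70-fold apart. The means were 104 ± 0.752 CPM in KM71-ScFlo1-LpDLDH and 1152 ± 207 CPM in KM71-LpDLDH (SD, n = 3 each), a log2 fold change of -3.47 with a standard error of 0.16 (adjusted p = 4.28e-08 by edgeR's quasi-likelihood test). This was the largest fall among the 4 genes and ranked 13 among the falls of all tested genes. Replicate 2 of KM71-LpDLDH stood below the other two, and without it the log2 fold change was -3.61.

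PAS_chr2-1_0309, which the study also lists as a transporter, had 86.43, 88.37 and 80.47 CPM in the 3 KM71-ScFlo1-LpDLDH libraries, against 421.6, 417.8 and 444.9 CPM in the 3 KM71-LpDLDH libraries. The replicates of each strain were close together, within 1.10-fold and 1.06-fold of each other. The log2 fold change was -2.33 with a standard error of 0.0495 (adjusted p = 1.80e-08 by edgeR's quasi-likelihood test), a 5.03-fold lower abundance that ranked 55 among all falls. Its adjusted p ranked 19 among the tested genes, ahead of that of PAS_chr1-4_0132, which ranked 39 although that gene fell further.

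PAS_chr3_0278 had the fewest reads of the ESBP6 homologs, with 479, 473 and 494 reads in the KM71-ScFlo1-LpDLDH libraries and 2112, 1995 and 1841 reads in the KM71-LpDLDH libraries. After scaling these were 35.7, 40.8 and 47.8 CPM in KM71-ScFlo1-LpDLDH, against 181, 157 and 158 CPM in KM71-LpDLDH. All 3 libraries with ScFLO1 were again below all 3 without it, and the closest pair was 3.29-fold apart. Its change of -2.0 on the log2 scale (standard error 0.139, edgeR's quasi-likelihood test, adjusted p = 3.23e-07) was the smallest fall of the 3 homologs and ranked 89 among all falls. This value lay at a fold change of 4, and it was on the lesser side of it in 5 of the 16 other fits, for example -1.90 when replicate 1 of the cultures with ScFLO1 was left out.

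The SUR1 homolog, PAS_chr1-3_0218, changed the other way. It had 245, 195 and 124 CPM in replicates 1, 2 and 3 of KM71-ScFlo1-LpDLDH, against 37.9, 47.5 and 52.0 CPM in replicates 1, 2 and 3 of KM71-LpDLDH. The cultures with ScFLO1 were all higher, but they were spread over a 1.98-fold range, and the lowest of them was 2.38-fold above the highest culture without ScFLO1. The mean was 188 ± 61.2 CPM in KM71-ScFlo1-LpDLDH and 45.8 ± 7.23 CPM in KM71-LpDLDH (SD, n = 3 each), a log2 fold change of 2.04 with a standard error of 0.321 (edgeR's quasi-likelihood test, adjusted p = 2.44e-05). By size this was rise number 74 of the tested genes. Among the cultures with ScFLO1, leaving out replicate 1 gave 1.80 and leaving out replicate 3 gave 2.26, and the call held in both cases.

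**Figure D2:**
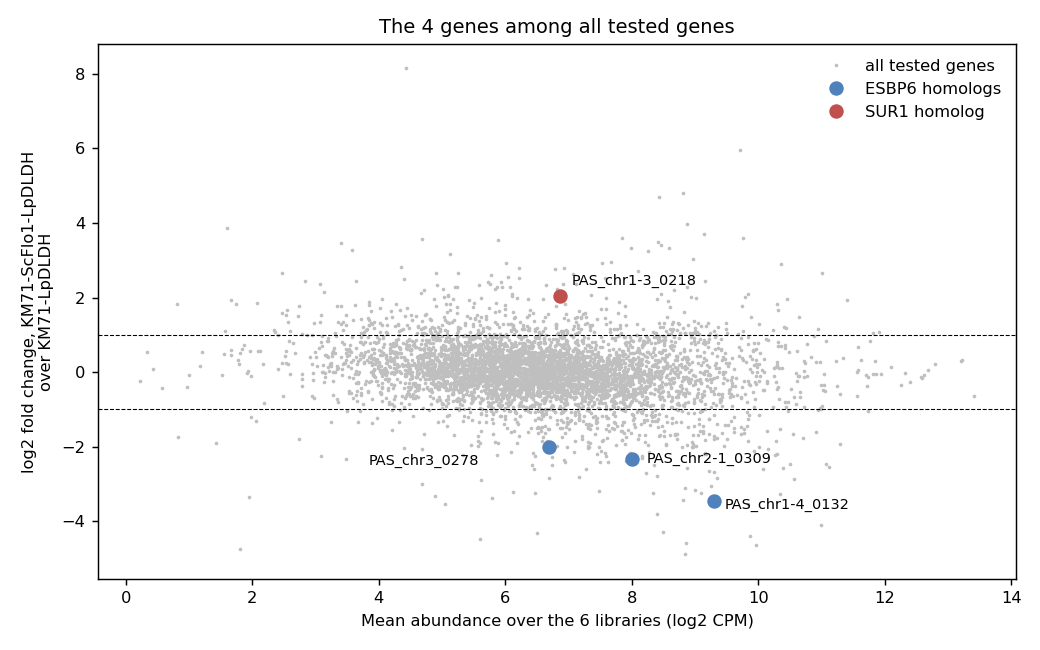
Log2 fold change of KM71-ScFlo1-LpDLDH over KM71-LpDLDH against mean abundance (log2 CPM over the 6 libraries) for the 5029 tested genes in grey, with the ESBP6 homologs in blue, the SUR1 homolog in red and dashed lines at a fold change of 2. The 4 genes lie outside the dashed lines, 3 below and 1 above, at log2 fold changes between -3.47 and 2.04.

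The 4 genes differed in how closely the replicate cultures resembled each other. The coefficient of variation (SD as a percentage of the mean) of PAS_chr1-4_0132 was 0.722% in KM71-ScFlo1-LpDLDH, below the 2.87% that counting error alone would give on average, and 18% in KM71-LpDLDH, where counting error was 0.859%. Of the tested genes, 99.3% varied more in KM71-ScFlo1-LpDLDH and 8.77% varied more in KM71-LpDLDH. A spread below counting error in 3 libraries does not show that the gene itself was steadier there. No test was made of this difference in spread.

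PAS_chr2-1_0309 varied by 4.83% in KM71-ScFlo1-LpDLDH and 3.43% in KM71-LpDLDH. PAS_chr3_0278 varied by 14.7% in KM71-ScFlo1-LpDLDH and 8.19% in KM71-LpDLDH. For both genes the larger spread was thus in the strain with fewer of their reads, although it was above counting error, which was 3.18% and 4.56%, in that strain too. PAS_chr1-3_0218 was the most variable in KM71-ScFlo1-LpDLDH, at 32.5%, against 15.8% in KM71-LpDLDH. Only 1.57% of tested genes varied more among the cultures with ScFLO1, and the 200 tested genes of most similar abundance there had a median of 6.09%.

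The cultures with ScFLO1 did not rank alike for the 4 genes. Replicate 1 was highest and replicate 3 lowest for the SUR1 homolog, an order shared by 32.0% of the tested genes, whereas replicate 3 was highest and replicate 1 lowest for PAS_chr3_0278, an order shared by 27.3%. For the other 2 ESBP6 homologs replicate 2 was highest. Library totals followed the first of these orders, with 12494758, 11093372 and 10386352 reads in replicates 1, 2 and 3, and their part in the spread was not tested.

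Whether the 3 ESBP6 homologs fell by the same factor was examined through the ratio of their reads within each library, which needs no scaling between libraries. The ratio of PAS_chr1-4_0132 to PAS_chr2-1_0309 was 1.21, 1.19 and 1.29 in the KM71-ScFlo1-LpDLDH libraries, against 3.00, 2.19 and 2.88 in the KM71-LpDLDH libraries. PAS_chr1-4_0132 thus fell 2.17-fold further than PAS_chr2-1_0309, with a difference in log2 ratio of -1.12 (95% interval -1.53 to -0.71, from the replicates). Against PAS_chr3_0278, its ratio was 2.92, 2.57 and 2.16 in KM71-ScFlo1-LpDLDH and 6.97, 5.80 and 8.09 in KM71-LpDLDH, a 2.72-fold further fall (difference -1.44, 95% interval -1.96 to -0.92). In both pairs the strains did not overlap.

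The ratio of PAS_chr2-1_0309 to PAS_chr3_0278 did overlap, with 2.42, 2.16 and 1.68 in KM71-ScFlo1-LpDLDH and 2.32, 2.65 and 2.81 in KM71-LpDLDH. The difference in log2 ratio of -0.32 had a 95% interval from -0.81 to 0.16, so that these data showed no difference in fall between these homologs beyond the replicate spread. The interval does not show that they fell alike. The SUR1 homolog was set against each ESBP6 homolog in the same way, and its reads rose relative to them by between 16.0-fold and 43.5-fold. Of the 6 pairs compared, 5 gave an exact two-sided permutation p of 0.1, the smallest that 3 libraries against 3 allow, and the remaining pair gave 0.2. Adjusted over the 6 pairs these were 0.12 and 0.2, so no pair could pass a threshold of 0.05 by this test.

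Summed over the 3 homologs, ESBP6-related reads came to 226, 234 and 232 CPM in the KM71-ScFlo1-LpDLDH libraries, against 1866, 1488 and 1884 CPM in the KM71-LpDLDH libraries. The mean sum was 231 ± 4.07 CPM in KM71-ScFlo1-LpDLDH and 1746 ± 223 CPM in KM71-LpDLDH (SD, n = 3 each), which is 7.57-fold lower with ScFLO1. PAS_chr1-4_0132 made up 69.2% of the difference. Its share of the summed reads was 45.2 ± 0.748% in KM71-ScFlo1-LpDLDH and 65.7 ± 3.75% in KM71-LpDLDH (SD, n = 3 each). The share of PAS_chr2-1_0309 was 36.9 ± 1.89% in KM71-ScFlo1-LpDLDH and 24.8 ± 2.91% in KM71-LpDLDH, and that of PAS_chr3_0278 was 17.9 ± 2.47% in KM71-ScFlo1-LpDLDH and 9.57 ± 1.09% in KM71-LpDLDH. PAS_chr1-4_0132 held the largest share in all 6 libraries, so the order of the homologs by reads was kept while their shares moved closer together. Gene lengths were not used, and these shares are of reads, not of transcripts.

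**Figure D3:**
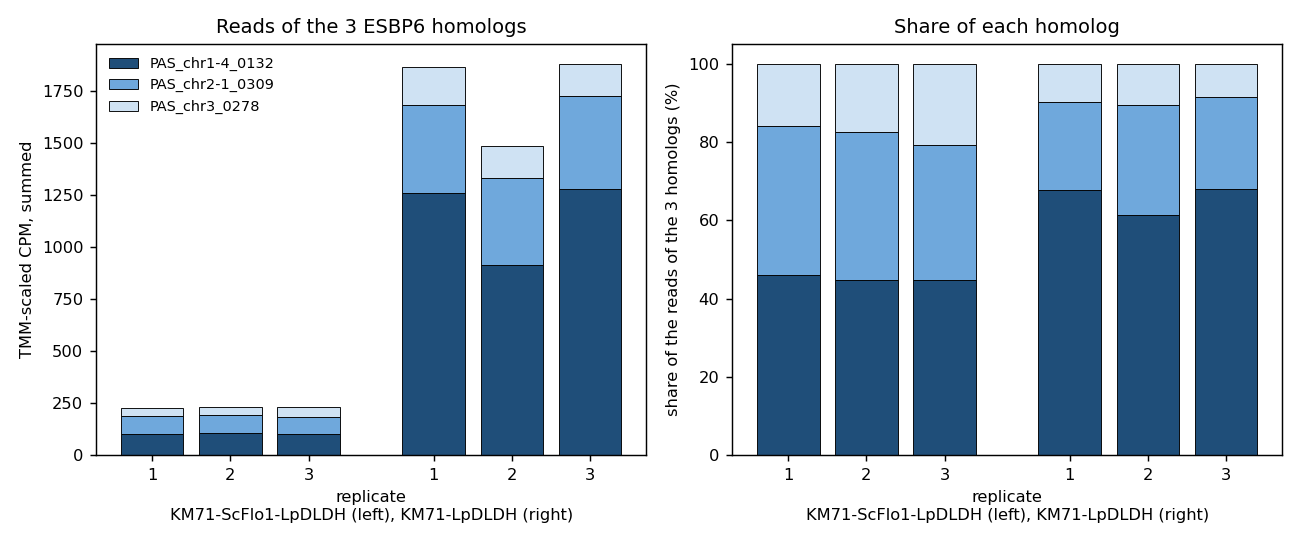
Left, TMM-scaled CPM of the 3 ESBP6 homologs stacked for each library; right, the share of each homolog in their summed reads (%), with the 3 KM71-ScFlo1-LpDLDH libraries left of the 3 KM71-LpDLDH libraries in each panel. The stacks reach 226 to 234 CPM with ScFLO1 and 1488 to 1884 CPM without it, and the share of PAS_chr1-4_0132 is 44.7% to 46.0% with ScFLO1 and 61.4% to 68.0% without it.

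Genes with nearby identifier numbers, called neighbours by number here, were also examined. Gene positions were not used, so that it was not checked which of them lie next to each other in the genome. Within 5 numbers of the 4 genes, 37 genes were tested, of which 4 rose and 2 fell past both thresholds, a share close to the 16.4% called among all tested genes. Their median log2 fold change was -0.17. Each of the 4 genes changed further than its neighbours by number, which follows in part from their having been picked for differential expression, and nothing is read from it.

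Around PAS_chr1-4_0132, whose log2 fold change was -3.47, the 9 tested neighbours lay between -0.74 and 1.05, and PAS_chr1-4_0137 alone was called, at 1.05. Around PAS_chr3_0278 the 10 neighbours lay between -0.83 and 1.40, and PAS_chr3_0282 was called, at 1.40. For these 2 ESBP6 homologs no neighbour fell past the thresholds. Around PAS_chr2-1_0309, PAS_chr2-1_0304 fell with it, at a log2 fold change of -1.52, while PAS_chr2-1_0311 rose, at 1.66, and PAS_chr2-1_0308 and PAS_chr2-1_0310, numbered just before and after it, had log2 fold changes of -0.74 and -0.17 and were not called.

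The gene numbered just before the SUR1 homolog, PAS_chr1-3_0217, rose as well. It had 82.6, 77.1 and 62.8 CPM in the KM71-ScFlo1-LpDLDH libraries, against 27.2, 35.4 and 35.1 CPM in the KM71-LpDLDH libraries, with a log2 fold change of 1.19 (standard error 0.171). As for the SUR1 homolog, replicate 1 was the highest and replicate 3 the lowest culture with ScFLO1, an order shared by 32.0% of the tested genes. For both genes replicate 1 was also the lowest culture without ScFLO1. The ratio of reads of PAS_chr1-3_0218 to those of PAS_chr1-3_0217 was 2.97, 2.53 and 1.97 in KM71-ScFlo1-LpDLDH and 1.39, 1.34 and 1.48 in KM71-LpDLDH, and the strains did not overlap. In these libraries the SUR1 homolog thus rose further than this neighbour, and no test was made of this ratio. PAS_chr1-3_0219, numbered just after the SUR1 homolog, had a log2 fold change of -0.20, and no neighbour with a higher number was called. Among the lower numbers, PAS_chr1-3_0216 fell, with a log2 fold change of -1.57. PAS_chr1-3_0215, which the study lists as a homolog of TPO2 and TPO3, had one of -0.99. It missed the call by its fold change alone (adjusted p = 0.000602 by edgeR's quasi-likelihood test). The use of strand in counting is not given in the sources used here, and whether any of these genes share reads was not tested.

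**Figure D4:**
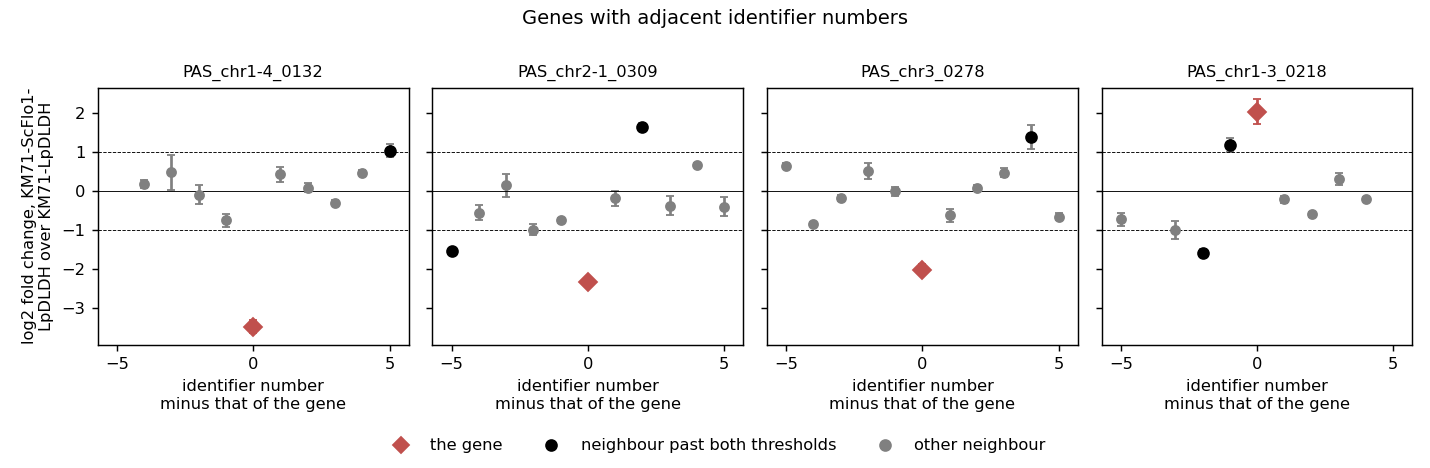
Log2 fold change (KM71-ScFlo1-LpDLDH over KM71-LpDLDH, bars for the standard error) of each of the 4 genes (red diamonds) and of tested genes within 5 identifier numbers, with those past both thresholds in black and dashed lines at a fold change of 2. The ESBP6 homologs lie below all their neighbours, the SUR1 homolog at 2.04 lies above all of its own, and the gene numbered just before it lies at 1.19.

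The study chose 18 further genes alongside these 4, for transport, iron, zinc and proton export. Of the 18, 12 rose, 2 fell and 4 were not called, with a median log2 fold change of 1.17. Those 4 missed the call by their fold change alone, as edgeR's quasi-likelihood test gave each an adjusted p under 0.05. Since this list was chosen on the same libraries, its counts are not independent evidence of a direction. The 11 transport genes and the plasma membrane H+-ATPase had 6 rises, 2 falls and 4 without a call. Their median log2 fold change was 0.94. The rises included the H+-ATPase gene PAS_chr1-1_0002, at 1.06, and the FPS1 homolog PAS_chr4_0784, listed as a putative channel-like protein, at 1.15.

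The list holds homologs of known carboxylate carriers, a role not established for the ESBP6 homologs. The homolog of JEN1, the lactate-proton symporter of *S. cerevisiae*, had 155 ± 30.4 CPM in KM71-ScFlo1-LpDLDH and 68.0 ± 3.37 CPM in KM71-LpDLDH (PAS_chr3_0440, log2 fold change 1.19). The homologs of the acetate transporter gene ADY2 had log2 fold changes of 0.83 for PAS_chr1-1_0418, 1.13 for PAS_chr1-1_0378 and 1.33 for PAS_chr2-1_0874, of which the last 2 were called, and a further gene listed as an acetate transporter rose at 1.30 (PAS_chr2-1_0649). All these values were above 0, whereas those of the 3 ESBP6 homologs were at or below -2.0. None of these carrier genes passed the test against a fold change of 2, which each ESBP6 homolog passed. PAS_chr1-1_0418 was also of low abundance, with means of 11.3 CPM in KM71-ScFlo1-LpDLDH and 6.43 CPM in KM71-LpDLDH. Falls of the size seen in PAS_chr3_0278 or above occurred in 2 further genes of the list. Of 2 homologs of PDR12, which encodes a pump for weak acid anions in *S. cerevisiae*, PAS_chr1-1_0398 fell with a log2 fold change of -2.01 and PAS_chr4_0832 was not called, at 0.79. Of 3 homologs of the polyamine exporter genes TPO2 and TPO3, PAS_chr1-4_0431 fell at -2.34, while PAS_chr4_0836 and PAS_chr1-3_0215 were not called, at 0.40 and -0.99. By size of change, PAS_chr1-4_0132 ranked 2 among the 22 genes of the whole list, PAS_chr2-1_0309 ranked 7, the SUR1 homolog ranked 8 and PAS_chr3_0278 ranked 10.

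**Figure D5:**
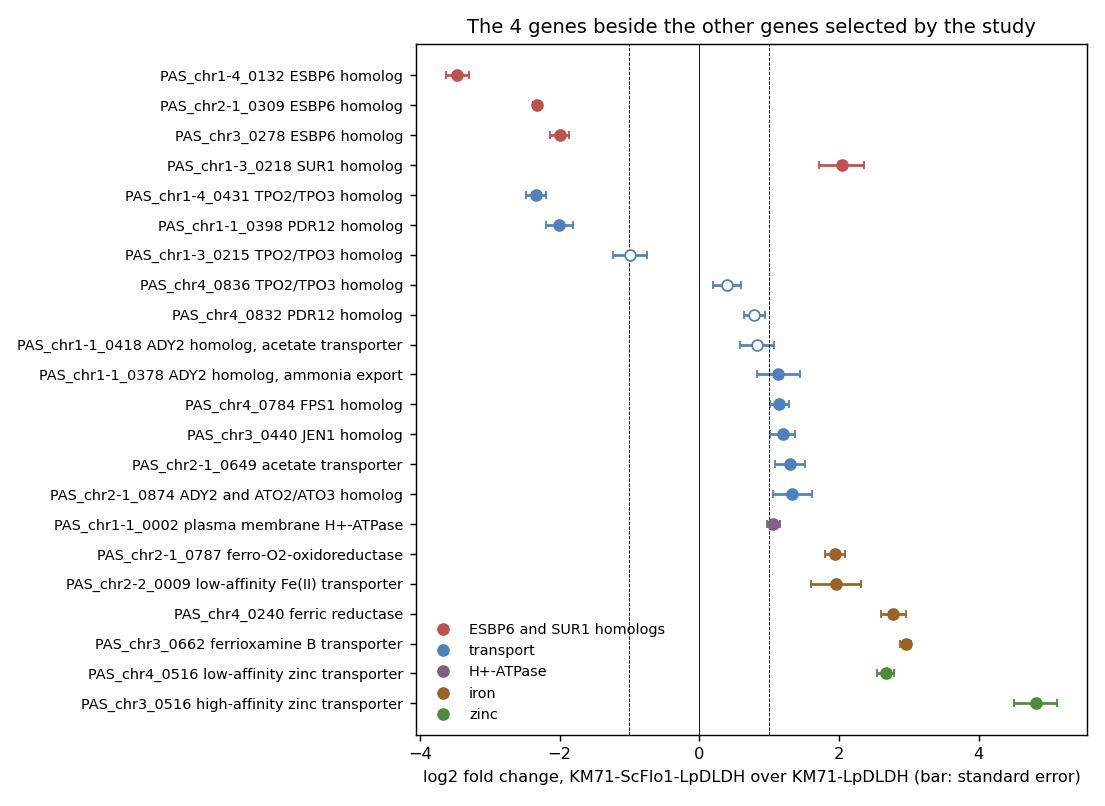
Log2 fold change (KM71-ScFlo1-LpDLDH over KM71-LpDLDH, bars for the standard error) of the ESBP6 and SUR1 homologs and of the other 18 genes selected by the study, by class, with open circles for genes not called and dashed lines at a fold change of 2. The ESBP6 homologs lie at -3.47, -2.33 and -2.0 and the SUR1 homolog at 2.04, while the transport genes run from -2.34 to 1.33.

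The genes whose pattern over the 6 libraries was most like that of each homolog were found by the root mean square (RMS) difference of centred log2 CPM. PAS_chr2-1_0684 was nearest to PAS_chr1-4_0132 (RMS 0.138), followed by PAS_chr1-1_0328 and PAS_chr1-3_0098. PAS_chr1-4_0573 was nearest to PAS_chr2-1_0309 (RMS 0.0719), followed by PAS_chr2-2_0276 and PAS_chr4_0693. PAS_chr3_0354 was nearest to PAS_chr3_0278 (RMS 0.053), followed by PAS_chr3_0250 and PAS_chr4_0248. None of the 3 homologs was among the 3 genes nearest to another of them. This measure counts the size of a change, so the unequal falls given above already keep the homologs apart. Nothing further about their likeness is read from it.

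For the SUR1 homolog the nearest was PAS_chr1-3_0017 (RMS 0.101), with 154 CPM in KM71-ScFlo1-LpDLDH and 39.6 CPM in KM71-LpDLDH, followed by PAS_chr4_0404 and PAS_chr2-2_0355. None of these 12 identifiers is annotated in the material used here. The likeness rests mainly on the difference between the strains, which many genes share, and 282, 299, 207 and 52 tested genes had a Pearson correlation above 0.99 with PAS_chr1-4_0132, PAS_chr2-1_0309, PAS_chr3_0278 and PAS_chr1-3_0218 over the 6 libraries. The SUR1 homolog had the fewest such genes. It also had the largest standard error of the 4 genes, at 0.321, and the part of replicate spread in this count was not tested.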

How the data were processed

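RNA of 3 cultures of each strain was sequenced as paired reads of 150 nt. According to the methods, the authors trimmed reads with fastp, mapped them with HISAT2 to the P. pastoris GS115 genome and made gene counts with HTSeq-count. Neither versions nor the strand setting were given in the sources used here. The deposited table calls its values normalized, but they were analysed as raw counts because they are whole, library totals differ, and DESeq2 size factors ranged from 0.872 to 1.15, where division by such factors would leave them near 1.

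Counts were tested with edgeR 4.0.16 (quasi-likelihood, TMM factors between 0.941 and 1.07, prior count 0.125) in R 4.3.3, over the 5029 genes averaging 10 or more reads per library. DESeq2 1.42.0, limma 3.58.1, other prior counts, filters, scalings and thresholds, omission of single libraries and a block for the replicate number were alternatives. The test was checked on simulated data. Standard errors and likeness used log2 CPM with a prior count of 2. The named genes are the 4 homologs, the study's other selected genes with a role in transport, called neighbours within 5 identifier numbers (others are named beside them after their values were seen), and the 3 genes of nearest pattern. The genes and lists were chosen with earlier results of these data known. Lists of sphingolipid, cell wall, carboxylate transport and weak acid response genes were planned by symbol, but 0 identifiers of the counts matched the reference gene table, which is for another assembly, so these lists and gene positions were not used. For the same reason no sequences are given. P-values of the gene tests weigh the difference between the strains against a spread estimated from 3 cultures of each, in part shared across genes. A two-sided exact permutation test of single values cannot go below 0.1.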

Additional observations from a re-analysis of the deposited data

How the results depend on the processing

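The 4 homologs kept their direction and their call in all 16 other fits and at an adjusted p under 0.01, a fold change above 4 and a test against a fold change of 2. Over the 16 fits the log2 fold change ranged from -3.61 to -3.36 for PAS_chr1-4_0132, from -2.36 to -2.22 for PAS_chr2-1_0309, from -2.12 to -1.90 for PAS_chr3_0278 and from 1.80 to 2.26 for PAS_chr1-3_0218, and the highest adjusted p of any was 0.000381. Each range includes the fits without 1 library. A fold change of 4 was not reached by PAS_chr3_0278 in 5 fits and by PAS_chr1-3_0218 in 4. Total-count scaling raised the median of all genes to 0.13 on the log2 scale, and relative to it the 4 genes had -3.49, -2.35, -2.03 and 2.03. The differences in read ratio between homologs kept their sign without any 1 library. They ranged from -1.26 to -1.03 for PAS_chr1-4_0132 to PAS_chr2-1_0309, from -1.57 to -1.33 for PAS_chr1-4_0132 to PAS_chr3_0278, and from -0.44 to -0.18 for PAS_chr2-1_0309 to PAS_chr3_0278.

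A fold change above 4 left 166 genes (77 higher, 89 lower) and a test against a fold change of 2 left 485 (211 higher). These stricter rules left 4 and 6 of the 12 rises among the other selected genes, and each kept the 2 falls. Among identifier neighbours, a fold change above 4 left 0 rises and 0 falls. The test against a fold change of 2 left 1 rise and 2 falls there. Within 2 identifier numbers, 2 neighbours rose and 1 fell, and with no scaling of the libraries 4 within 5 numbers fell. With DESeq2 or limma, 3 neighbours within 5 numbers and 3 of the other selected genes fell, against 2 and 2 in the main fit. Of the 3 genes most like each homolog, Pearson correlation kept 0 for each ESBP6 homolog and 1 for the SUR1 homolog. The labels do not say whether same-numbered cultures of the strains were paired. Same-numbered cultures had correlations of deviations of -0.134, 0.0533 and 0.114, and differently numbered ones ran from -0.254 to 0.28. With 3 cultures per strain these values cannot decide whether the numbers pair cultures. With the replicate number as a block, 829 genes were called, 821 of them among the 825, and the log2 fold change of PAS_chr1-3_0218 was 1.99. Counting error, averaged over a strain's libraries, was at most 4.56% for the 4 genes, below the replicate spread except for PAS_chr1-4_0132 in KM71-ScFlo1-LpDLDH.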
